A study of Mus musculus with 4 samples.

Results

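The translation initiation and elongation factor genes were followed in testis RNA of *Nef-sp*-/- mice, which lack the testis nuclear exoribonuclease NEF-sp, and of *Nef-sp*+/- controls. Members were chosen by symbol: all features counted in exons on the sense strand whose name starts with Eif, Eef or Pabpc. This gave 67 genes of the 12415 listed in that category. Of these, 4 are Argonaute genes under their older names *Eif2c1* to *Eif2c4*, which bind small RNAs and are not translation factors, so that 63 members are left when they are set aside. Another 63 is the number of members with enough reads for a test, which includes 3 of the Argonautes. The 4 members below the count filter of edgeR were *Eif2ak3*, *Eif2c1*, *Eif4e3* and *Pabpc4*.

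Testes were taken from adult C57Bl/6J mice at postnatal day 60, with 2 libraries for *Nef-sp*-/- and 2 for *Nef-sp*+/-, called controls here. The null allele was made with Cas9 nickase and a guide pair and carries an out-of-frame deletion, and the line was founded from injected embryos crossed to C57Bl/6J Rj males. The controls are heterozygous, so they carry the null allele on the other chromosome, and wild-type testes were not part of the comparison. Total RNA was depleted of rRNA and sequenced strand by strand. Whole testis RNA was used, so fewer cells of a type and less RNA per cell cannot be told apart in any value below. Whether the libraries came from separate animals is not said in the labels, and p-values measure only the spread between these libraries.

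Initiation begins when eIF2 brings the initiator tRNA to the small ribosomal subunit, where eIF1, eIF1A, eIF3 and eIF5 bind as well. The cap-binding factor eIF4E, the scaffold eIF4G and the helicase eIF4A then attach this complex to the mRNA, and poly(A)-binding proteins link the mRNA tail to eIF4G. After the start codon is found, eEF1A delivers aminoacyl-tRNAs to the ribosome and eEF2 moves it along the mRNA. The testis is known for translation that is delayed after transcription: spermatids store many mRNAs, among them those of protamines, and translate them once transcription has ceased. It is also known for gene copies that are active mainly in germ cells, such as *Pabpc2*, an intronless relative of *Pabpc1*.

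The libraries held between 20659865 and 34442517 counted reads, of which 15815159 to 26618821 lay in exons on the sense strand. *Nef-sp* itself, listed as 2610020H08Rik, had 1843 and 1693 normalized counts in the controls and 407 and 497 in *Nef-sp*-/-, with a log2 fold change of -1.97 (SE 0.092, edgeR adjusted p = 4.1e-06), lower in the libraries labeled as null. It was the 1 feature of 10728 tested in exon sense reads that passed the test, which is 0.00932% of them. All 10 spermatocyte markers and 8 of 9 round spermatid markers were listed, which fits the labeled tissue, and the single listed epididymis marker of 7 reached no more than 5.77 normalized counts. A control library stood apart: the 9 elongating spermatid markers summed to 442298 normalized counts in *Nef-sp*+/- replicate 1, and to between 547769 and 561206 in the other libraries. That library was also the lowest for the peritubular myoid cell markers, at 6357 against 6920 to 7168, but not for the Sertoli cell markers.

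Some of these genes exist as near copies of each other, so the sequences that tell their reads apart come first. *Eif2s3x* and *Eif2s3y* encode the gamma subunit of eIF2 from the X and the Y chromosome, and 1225 of 1419 aligned coding bases were identical (86.3%). *Eif4a1* and *Eif4a2* encode the helicase eIF4A and shared 78.1% of their coding bases. No stretch of 50 bases, the number of sequencing cycles, was common to the coding sequence of both genes in either pair. For each pair the first ungapped stretch within an exon of both genes that had the median number of differences is shown. That median was taken over 828 such stretches of *Eif2s3x* and *Eif2s3y* and over 705 of *Eif4a1* and *Eif4a2*, so other stretches can be closer. Sequences are in the coding sense from mm9, with bases that differ from the partner in capitals. In the *Eif2s3x* and *Eif2s3y* stretch 6 of 50 bases differed, and in the *Eif4a1* and *Eif4a2* stretch 11 differed.
*Eif2s3x*, chrX:91457059-91457108, minus strand: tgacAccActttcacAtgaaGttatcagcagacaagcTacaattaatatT
*Eif2s3y*, chrY:347716-347765, plus strand: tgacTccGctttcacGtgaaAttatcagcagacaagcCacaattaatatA
*Eif4a1*, chr11:69484200-69484249, minus strand: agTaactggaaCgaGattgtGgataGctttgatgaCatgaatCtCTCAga
*Eif4a2*, chr16:23108792-23108841, plus strand: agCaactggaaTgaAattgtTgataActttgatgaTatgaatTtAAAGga

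The members' own start codons are shown for 4 genes whose products read or follow start codons: *Eif1* and *Eif5*, which set how strictly the start codon is chosen, *Eif4g2*, and *Eef1a1*. Of 66 members with enough annotated sequence before the start, 65 began with ATG. The exception was *Eif4g2*, the eIF4G relative that lacks the eIF4E-binding part, with an annotated GTG. The start codon stands in capitals, with 10 bases on each side.
*Eif4g2*, chr7:118225059-118225061, minus strand: agccgccaaaGTGgagagtgcga
*Eif1*, chr11:100181444-100181446, plus strand: atcgtatcgtATGtccgctatcc
*Eif5*, chr12:112777827-112777829, plus strand: ataagccaaaATGtctgtcaacg
*Eef1a1*, chr9:78328459-78328461, minus strand: caaagcaaaaATGggaaaggaaa
An ATG with a purine 3 bases before it and a G right after it was found in 45.5% of the 66 members. Among 18903 genes with such an annotation the share was 41.2%. Starts other than ATG, such as that of *Eif4g2*, were counted as lacking this context. This is a description of the annotated starts, and no protein was measured.

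As a group, these genes took nearly the same share of the exon sense reads in every library. Their reads made up 1.846% and 1.847% in the controls and 1.825% and 1.806% in *Nef-sp*-/-. The means were 1.847% ± 0.00049 (SD, n = 2) and 1.816% ± 0.013 (SD, n = 2), with both *Nef-sp*-/- libraries below both controls. The exact permutation test (two-sided) gave p = 0.333, and no smaller p is possible with 2 libraries against 2. Between 54.6% and 55.7% of the member reads came from 6 genes in each library.

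Levels were compared between genes as RPKM, the exon sense reads of a gene per kilobase of annotated exon, scaled to the total of exon sense reads in the library. On this scale 17 of the 63 tested members were at 100 or above, 29 between 10 and 100, 13 between 1 and 10, and 4 below 1. The median was 29.6, and the highest member was 7030 times the lowest tested. Of the 62 pairs of neighbours in this order, 37 overlapped between libraries and so did not differ beyond their spread. Among the 10 highest, the order was *Eef1a1*, *Eef2*, *Pabpc2*, *Eef1g*, *Eif5*, *Pabpc1*, *Eif5a*, *Eif1b*, *Eif3g* and *Eif3c*, and only *Eef1g* with *Eif5* and *Pabpc1* with *Eif5a* overlapped. The order depended on the length used: with the longest coding transcript *Eef1d*, *Eif4g2* and *Eif3k* were among the 10 highest, and *Eif1b*, *Eif3g* and *Eif3c* were not.

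**Figure D1:**
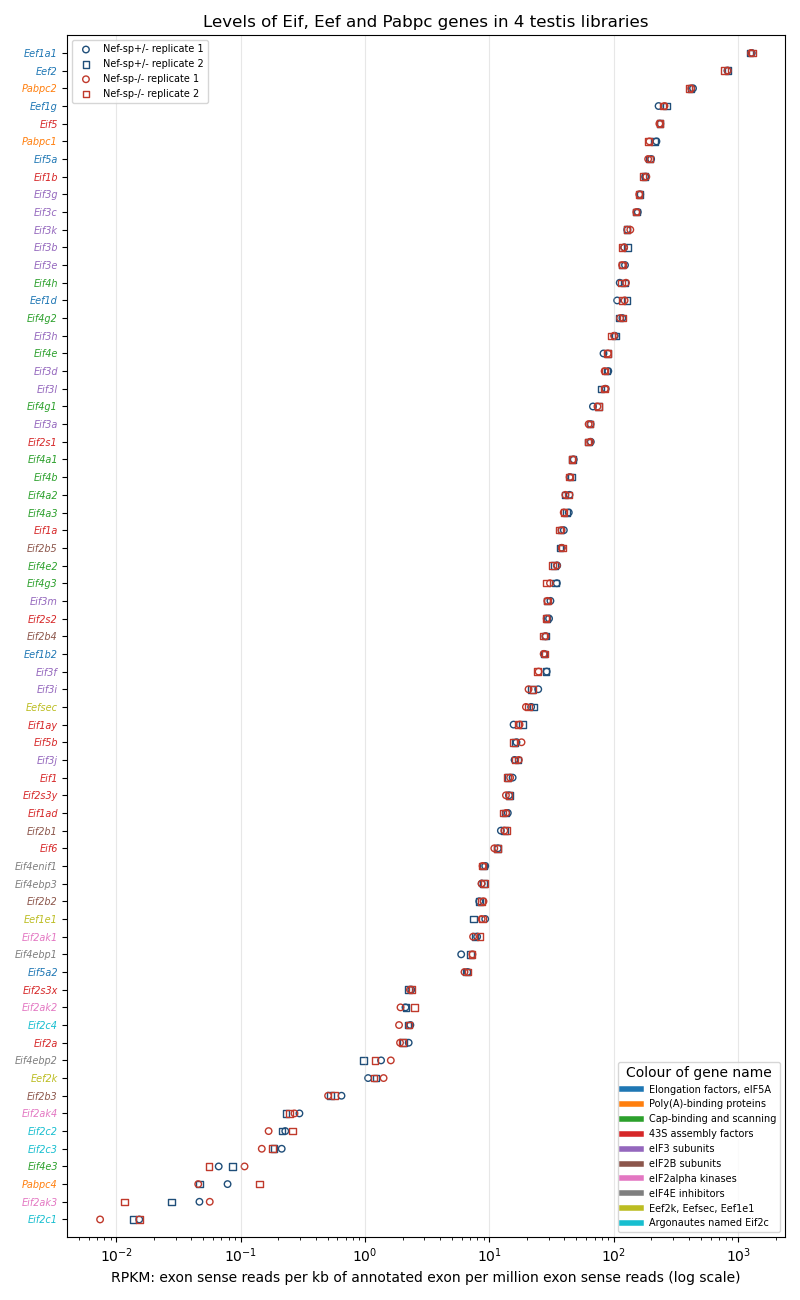
Level of each of the 67 genes in each of the 4 libraries, in RPKM (exon sense reads, annotated exon length) on a log scale, with gene names coloured by role. For most genes the 4 points fall on top of each other, and the spread widens below a level of about 1, where *Eif2ak3*, *Eif2c1*, *Eif4e3* and *Pabpc4* lie at the bottom.

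*Eef1a1* and *Eef2* had the highest levels of the members with either length. *Eef1a1*, which delivers aminoacyl-tRNAs, had levels of 1287 and 1250 in the controls and 1269 and 1301 in *Nef-sp*-/-. *Eef2*, which drives translocation, had levels of 820 and 832 in the controls and 826 and 780 in *Nef-sp*-/-. The genotypes overlapped in both genes on this scale. *Eef1g* and *Eef1d*, subunits of the factor that recharges eEF1A with GTP, were at mean levels of 249 and 118, and *Eef1b2*, another subunit of it, was at 27.6. *Eif5a*, which helps the ribosome through difficult peptide bonds and depends on hypusine, was at 194 on average, and its paralogue *Eif5a2* at 6.57.

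The genotype comparison asked whether loss of NEF-sp shifts these genes. None of the 63 tested members passed the test in edgeR, against 0.00932% of all exon sense features, and none in DESeq2, against 0.0161%. The 95% interval of the log2 fold change lay within 0.5 of 0 for 59 of the 63 (93.7%), against 76.9% of all features tested, so that for these genes a change of that size was outside the interval. The median log2 fold change of the members was 0.0019, and that of all features -0.0002. Without regard to sign the median was 0.04 for members and 0.07 for all features. The members were also read more deeply, with a median mean count of 2038 against 454, and their median SE was 0.065 against 0.089.

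Members in which the genotypes did not overlap were counted beside all features, and the difference in shares was not tested. Both *Nef-sp*-/- libraries were above both controls in 7 members (11.1%), against 16.4% of all features, and below both in 10 members (15.9%), against 18.1%. The 7 above were *Eef1a1*, *Eif2b1*, *Eif2b2*, *Eif2b5*, *Eif2s3x*, *Eif3l* and *Eif4ebp1*. The 10 below were *Eefsec*, *Eif2a*, *Eif2c3*, *Eif2s2*, *Eif3d*, *Eif3f*, *Eif4a3*, *Eif4enif1*, *Eif4g3* and *Pabpc1*. A log2 fold change above 0.25 in either direction was found in 1 member (1.59%), *Eif4ebp2*, against 10.1% of all features. An unadjusted p below 0.05 was found in edgeR in 3 members (4.76%), against 4.8% of all features. With DESeq2, run without the count filter, the same 3 were 4.48% of the members, against 1.14% of all features. All 3, *Eif3f*, *Eif4g3* and *Pabpc1*, had lower counts in *Nef-sp*-/-. In edgeR this set changed when some single libraries were left out, which leaves a lone library in that genotype. Values of other members moved with 1 library as well, toward higher levels in *Nef-sp*-/-. The log2 fold change was 0.21 for *Eef1d* without *Nef-sp*+/- replicate 2, and 0.19 for *Eif5b* without *Nef-sp*-/- replicate 2.

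**Figure D2:**
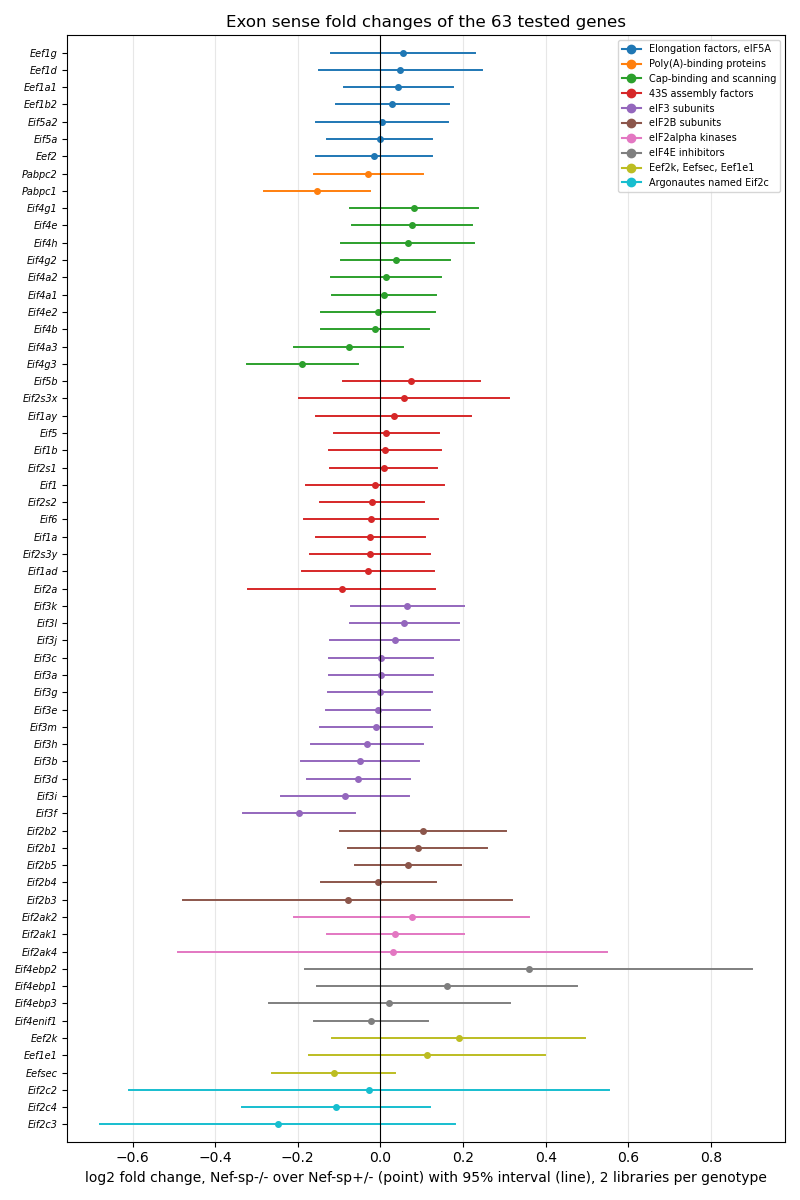
Fold change (log2, *Nef-sp*-/- over the controls) of the 63 tested members in exon sense reads, coloured by role, with lines for the 95% interval of the edgeR fit (2 libraries per genotype). Most points lie close to 0 with short lines, only the intervals of *Eif3f*, *Eif4g3* and *Pabpc1* leave out 0, and the widest intervals belong to genes with few reads such as *Eif2c2* and *Eif4ebp2*.

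**Figure D3:**
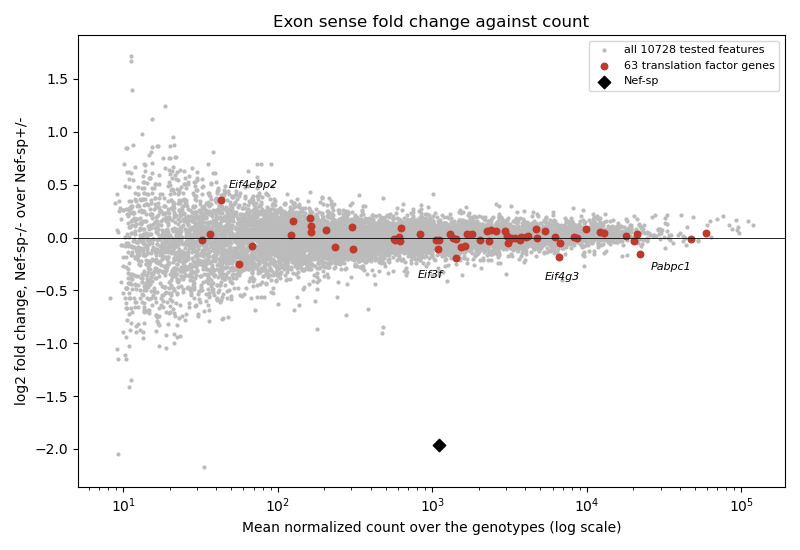
Fold change (log2, *Nef-sp*-/- over the controls) against the mean normalized count (log scale) for the 10728 tested exon sense features in grey, the 63 members in red and *Nef-sp* as a black diamond. The members lie along 0 over the whole range of counts, from *Eif2c2* to *Eef1a1*, while *Nef-sp* lies apart at -1.97.

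*Eif3f*, a subunit of eIF3 with an MPN domain, had the smallest p of the members. Its normalized counts were 1519 and 1540 in the controls and 1356 and 1315 in *Nef-sp*-/-. The log2 fold change was -0.20 (SE 0.061, edgeR adjusted p = 0.954). The genotypes did not overlap, but the difference did not pass the test after adjustment over all features. The gene lies on the plus strand of chromosome 7, from 116077931 to 116086465, and has 8 coding exons.

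The other 12 eIF3 subunits on the list were closer to 0. eIF3 is a large scaffold that binds the small ribosomal subunit and helps to recruit the mRNA, and its 13 listed subunits had mean levels from 16.5 for *Eif3j* to 161 for *Eif3g*. *Eif3c*, a core subunit with the most reads, had 8182 and 8214 normalized counts in the controls and 8267 and 8150 in *Nef-sp*-/-, with a log2 fold change of 0.0019 (SE 0.057). *Eif3b*, another core subunit, had 6542 and 7144 against 6782 and 6444. *Eif3i*, a WD-repeat subunit, had 1664 and 1518 against 1441 and 1551, a log2 fold change of -0.09 (SE 0.070), with overlap between the genotypes. *Eif3m*, a subunit with a PCI domain, had 1459 and 1411 against 1430 and 1418. In all, 5 of the 13 had a positive and 8 a negative log2 fold change, with a median of -0.006, and 0 passed the test.

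The poly(A)-binding proteins were represented by a general and a germ cell gene at similar counts. *Pabpc1*, the general form, had 23132 and 23043 normalized counts in the controls and 21056 and 20450 in *Nef-sp*-/-. *Pabpc2* had 20418 and 20270 in the controls and 20460 and 19411 in *Nef-sp*-/-. The 2 genes differed in the order of their libraries: for *Pabpc1* the genotypes did not overlap, and for *Pabpc2* they did. The log2 fold change was -0.15 (SE 0.058) for *Pabpc1* and -0.03 (SE 0.060) for *Pabpc2*, and neither passed the test (edgeR adjusted p = 0.954 and 0.976). The difference between the 2 fold changes was not tested.

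Per kilobase, the rank of *Pabpc2* over *Pabpc1* depended on the length used. With annotated exon length, 5768 bases for *Pabpc1* and 2586 for *Pabpc2*, the level of *Pabpc2* was 1.96 to 2.17 times that of *Pabpc1* in the 4 libraries. With the longest coding transcript, of 2817 bases for *Pabpc1*, the ratio was 0.958 to 1.06. *Pabpc2* has 1 coding exon, against 14 for *Pabpc1*. *Pabpc4*, another gene of this family, was hardly detected, with 5 and 5 reads in the controls and 3 and 9 in *Nef-sp*-/-.

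Among the cap-binding and scanning factors, *Eif4g3* had the smallest p. This scaffold, from 137548937 to 137764423 on the plus strand of chromosome 4, has been linked to male fertility in mice. It had 7004 and 7038 normalized counts in the controls and 6394 and 5926 in *Nef-sp*-/-, with a log2 fold change of -0.19 (SE 0.061, edgeR adjusted p = 0.954). Its paralogue *Eif4g1*, the general scaffold, had 8945 and 10204 against 10077 and 10183, a log2 fold change of 0.08 (SE 0.070). The genotypes overlapped for *Eif4g1* and not for *Eif4g3*, and the ratio of the *Eif4g1* to the *Eif4g3* level was 1.95 and 2.22 in the controls and 2.41 and 2.63 in *Nef-sp*-/-. With the longest coding transcript this ratio was 1.28 to 1.72. *Eif4g2* was the most abundant of the family, with 21208 and 20764 against 21064 and 21998 normalized counts, and its level was 1.48 to 1.73 times that of *Eif4g1*, or 2.22 to 2.58 times with the longest coding transcript.

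The cap-binding protein *Eif4e* had 4338 and 4849 normalized counts in the controls and 4872 and 4822 in *Nef-sp*-/-. Its relative *Eif4e2*, a cap-binding protein that acts as a repressor, had 4789 and 4703 against 4930 and 4522. *Eif4e3*, a further relative, had 6 and 13 reads against 10 and 5. Counts of *Eif4e* and *Eif4e2* were thus alike, while per kilobase of annotated exon *Eif4e2* was at 0.361 to 0.424 of *Eif4e*, and with the longest coding transcript at 0.942 to 1.11.

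The helicase *Eif4a1* had 3758 and 3765 normalized counts in the controls and 3839 and 3728 in *Nef-sp*-/-, and *Eif4a2* had 4283 and 4049 against 4105 and 4301. *Eif4a3*, which belongs to the exon junction complex rather than to cap-dependent initiation, had 1679 and 1658 against 1584 and 1577. Its genotypes did not overlap, at a log2 fold change of -0.08 (SE 0.060, edgeR adjusted p = 0.954). The list of 10 cap-binding and scanning factors tested includes *Eif4a3*. Of these 10, 6 had a positive and 4 a negative log2 fold change, and 0 passed the test.

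**Figure D4:**
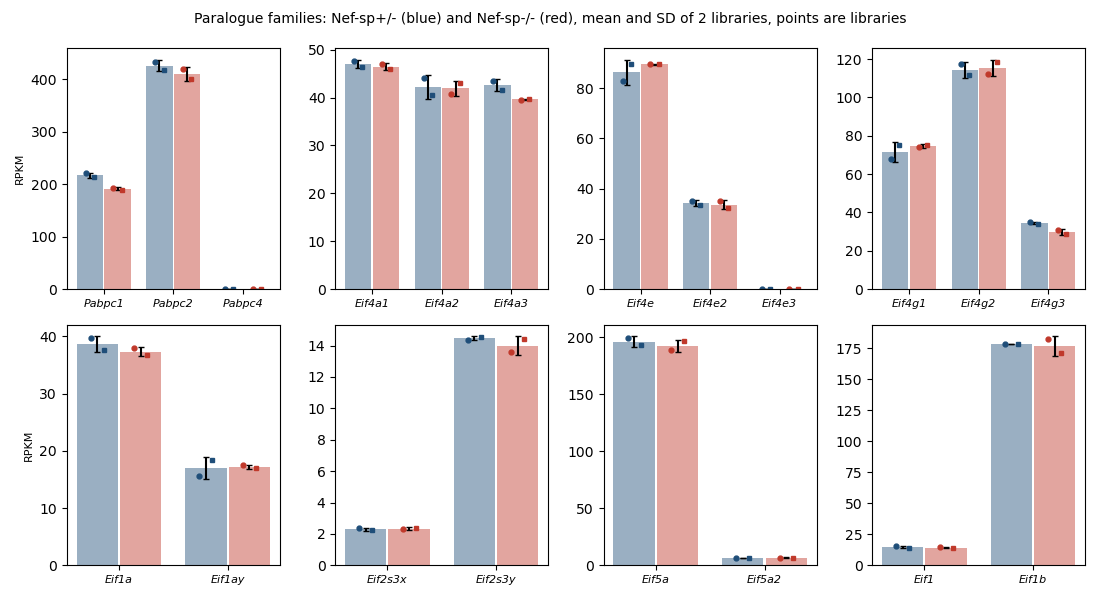
Levels in RPKM (exon sense reads, annotated exon length) in 8 paralogue families, with bars for the mean, lines for the SD of 2 libraries and points for the libraries, *Nef-sp*+/- in blue and *Nef-sp*-/- in red. In each family the genes keep their order in both genotypes except for *Eif4a2* and *Eif4a3*, which lie close together, and *Pabpc4* and *Eif4e3* lie at the baseline.

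Of the factors that assemble on the small subunit, *Eif5* had the most reads. It activates GTP hydrolysis by eIF2, and had 17683 and 18110 normalized counts in the controls and 18010 and 18143 in *Nef-sp*-/-. *Eif2s1*, the alpha subunit of eIF2 that is phosphorylated under stress, had 4050 and 3993 against 4146 and 3941. The genotypes overlapped in both genes. *Eif1b* was at 11.6 to 12.6 times the level of *Eif1*, its close relative in start codon selection, and at 7.33 to 7.96 times with the longest coding transcript. Of the 50-base stretches of the *Eif1* transcript, 55.9% occur at several places in the genome, against 0 for *Eif1b*. The ratio therefore carries what the counting did with such reads. eIF1A, which works with eIF1 in scanning, is encoded by *Eif1a*, with 1 coding exon, and by the X-linked *Eif1ay*, with 7. *Eif1a* had 2079 and 2033 normalized counts in the controls and 2061 and 1980 in *Nef-sp*-/-, and *Eif1ay* had 1500 and 1815 against 1736 and 1668. The coding sequences shared 85.5% of their bases, the level of *Eif1a* was 2.05 to 2.54 times that of *Eif1ay*, and the genotypes overlapped in both.

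Reads of the gamma subunit of eIF2 came mainly from the Y-linked gene. *Eif2s3y* had 1090 and 1137 normalized counts in the controls and 1067 and 1124 in *Nef-sp*-/-, and *Eif2s3x* had 163 and 160 against 165 and 170. The *Eif2s3y* level was 5.91 to 6.51 times the *Eif2s3x* level, and 12.8 to 14.1 times with the longest coding transcript. Of the 50-base stretches of the *Eif2s3x* transcript, 81.0% occur at several places in the genome, against 0 for *Eif2s3y*, so the ratio carries what the counting did with such reads. The list of 13 genes behind this group also holds *Eif5b* and *Eif6*. Of these 13, 6 had a positive and 7 a negative log2 fold change, between -0.09 and 0.07, and 0 passed the test.

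Genes that regulate initiation spanned a wide range of levels. The 5 subunits of eIF2B, which reloads eIF2 with GTP, ranged from 0.562 for *Eif2b3* to 38 for *Eif2b5*. *Eif2b5*, the catalytic subunit, had 2224 and 2214 normalized counts in the controls and 2314 and 2332 in *Nef-sp*-/-, and *Eif2b1*, a regulatory subunit, had 580 and 639 against 641 and 663. In 3 of the 5 both *Nef-sp*-/- libraries lay above both controls, against 16.4% of all features. Their log2 fold changes were 0.07 for *Eif2b5*, 0.09 for *Eif2b1* and 0.10 for *Eif2b2*. *Eif2b4* had 1336 and 1372 against 1381 and 1318, and *Eif2b3* had 77.1 and 64.8 against 62.4 and 69.8. None of the 5 passed the test, and the median log2 fold change was 0.07.

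Kinases of eIF2 alpha, which block initiation under stress, had levels between 0.261 and 7.85 where tested. *Eif2ak1*, the heme-regulated kinase, had 823 and 815 normalized counts in the controls and 791 and 889 in *Nef-sp*-/-. *Eif2ak2*, the kinase activated by double-stranded RNA, had 197 and 205 against 186 and 239. *Eif2ak4*, the amino acid sensor, had 40.3 and 32.4 against 38.1 and 34.3, and *Eif2ak3*, the kinase of the endoplasmic reticulum, had 4 and 4 reads against 5 and 1. The genotypes overlapped in the 3 kinases that could be tested.

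The proteins that hold eIF4E back from eIF4G were at levels between 1.28 and 8.95, and *Eif4e* was at 12.3 to 13.9 times the level of *Eif4ebp1*. *Eif4ebp1* had 106 and 130 normalized counts in the controls and 135 and 133 in *Nef-sp*-/-. *Eif4ebp2* had 43.7 and 32.4 against 54.3 and 40.2, with overlap, and at 0.36 (SE 0.25, edgeR adjusted p = 0.954) had the largest log2 fold change of the members tested. *Eif4enif1*, which carries eIF4E into the nucleus, had 1069 and 1064 against 1056 and 1044. Of the 4, 3 had a positive and 1 a negative log2 fold change, and 0 passed the test.

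In elongation, *Eef1a1* had 58432 and 58428 normalized counts in the controls and 59709 and 60701 in *Nef-sp*-/-, with a log2 fold change of 0.04 (SE 0.059). *Eef2* had 46251 and 48317 against 48291 and 45225. *Eef1a1* did not overlap between genotypes on this scale, and *Eef2* did. *Eif5a* had 8635 and 8590 against 8472 and 8731, and *Eif5a2* had 607 and 613 against 594 and 629. The kinase that inhibits eEF2, *Eef2k*, had 138 and 164 against 191 and 159, a log2 fold change of 0.19 (SE 0.14). *Eefsec*, which brings the selenocysteine tRNA to the ribosome, had 1088 and 1165 against 1023 and 1065, a log2 fold change of -0.11 (SE 0.067) without overlap. *Eef1e1*, a subunit of the multi-synthetase complex, had 174 and 144 against 169 and 170. Of the 7 elongation factors and eIF5A genes, and the 3 other genes with Eef names, 0 passed the test.

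The Argonautes that still carry Eif2c names had few reads. *Eif2c4* had 319 and 313 normalized counts in the controls and 268 and 318 in *Nef-sp*-/-, *Eif2c3* had 64.5 and 57.7 against 46.2 and 55.6, and *Eif2c2* had 33.4 and 32.4 against 25.4 and 39.0. *Eif2c3* did not overlap between genotypes and had the most negative log2 fold change of the members, -0.25 (SE 0.20, edgeR adjusted p = 0.954). *Eif2c1* had 2 and 3 reads against 1 and 2.

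The elongating spermatid markers differed between the control libraries, and some members differed there too. All 9 of these markers had a positive log2 fold change, with a median of 0.17. In 4 of them both *Nef-sp*-/- libraries lay above both controls, against 16.4% of all features. In edgeR 3 of the 9 had an unadjusted p below 0.05, against 4.8% of all features, and 0 passed the test. *Eef1d* had 11430 normalized counts in *Nef-sp*+/- replicate 1, 14145 in replicate 2, and 13594 and 12855 in *Nef-sp*-/-. *Eef1g* had 10850 in *Nef-sp*+/- replicate 1, 12871 in replicate 2, and 12540 and 12095 in *Nef-sp*-/-. Without *Nef-sp*+/- replicate 2, which leaves replicate 1 as the lone control, assumed to vary like the *Nef-sp*-/- libraries, *Eef1d* passed the test with a log2 fold change of 0.21 (SE 0.058, edgeR adjusted p = 0.0279). In that fit 252 of all features passed it (2.32%), 221 of them higher in *Nef-sp*-/-. Without *Nef-sp*+/- replicate 1, 41 of all features (0.376%) and no member passed. The part of the spermatid markers in these values was not tested. *Nef-sp*+/- replicate 1 was the lowest library for 28.6% of the members and for 26.8% of all features, and *Nef-sp*-/- replicate 2 for 33.3% of the members and for 25% of all features.

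Of the Leydig cell markers, 5 of 8 had a positive log2 fold change, with a median of 0.05. The values ranged from -0.35 to 0.18. In 3 of 8 both *Nef-sp*-/- libraries lay below both controls, against 18.1% of all features. In edgeR 2 of 8 had an unadjusted p below 0.05, against 4.8% of all features, and 0 passed the test. The sums of the list were 19810 and 19917 normalized counts in the controls and 18852 and 16436 in *Nef-sp*-/-. The part of these cells in the lower *Pabpc1*, *Eif4g3* and *Eif3f* counts was not tested. Replicates of the members were otherwise close: the median ratio of the higher to the lower library was 1.03 in *Nef-sp*+/- and 1.04 in *Nef-sp*-/-, against 1.07 in each genotype over all features.

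Genes that act beside these factors were tested as well. Of 22 tested partners of the poly(A)-binding proteins and the cap complex, such as *Paip1* and *Pdcd4*, 0 passed the test, 10 had a positive and 12 a negative log2 fold change, and the median was -0.02. The 6 tested genes of mTORC1 signalling, which controls the eIF4E inhibitors, had a median of 0.02, and 0 passed. The 9 tested genes for modification of eIF5A and eEF2 and for the reversal of eIF2 alpha phosphorylation had a median of 0.04, and the 9 for translation in mitochondria a median of -0.007. None of these passed. Across these lists an unadjusted p below 0.05 was found for *Rps6kb1*, the kinase of ribosomal protein S6, with 63.3 and 45.8 normalized counts against 77.4 and 71.0. It was also found for *Atf4*, a transcription factor made when eIF2 is phosphorylated, with 863 and 901 against 998 and 963. Such a p was found for 4.8% of all features, and in DESeq2 for neither gene.

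How far the reads of each gene can be placed was read from the genome. All stretches of 50 bases in the longest coding transcript of each member were looked up in mm9 as perfect matches on both strands, since the authors kept only perfect matches. In 27 of the 67 members no stretch occurred more than once, and in 18 members over 10% of the stretches occurred at several places. The share was 81.0% for *Eif2s3x*, 77.0% for *Eif3j*, 69.8% for *Eef1a1*, 67.3% for *Pabpc4*, 63.7% for *Eif4a1*, 61.4% for *Eef1g* and 55.9% for *Eif1*. Such stretches of *Eef1a1* matched at up to 13 places. Stretches shared with another member were found in 3 Argonautes, 125 in *Eif2c1*, 121 in *Eif2c3* and 4 in *Eif2c2*, and in none of the other members. The levels of genes with stretches at several places, and the ratios of levels given above for them, are uncertain to that extent. Between 0% and 45.9% of the stretches, with a median of 15%, were found nowhere in the genome, as is the case for stretches across exon junctions.

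**Figure D5:**
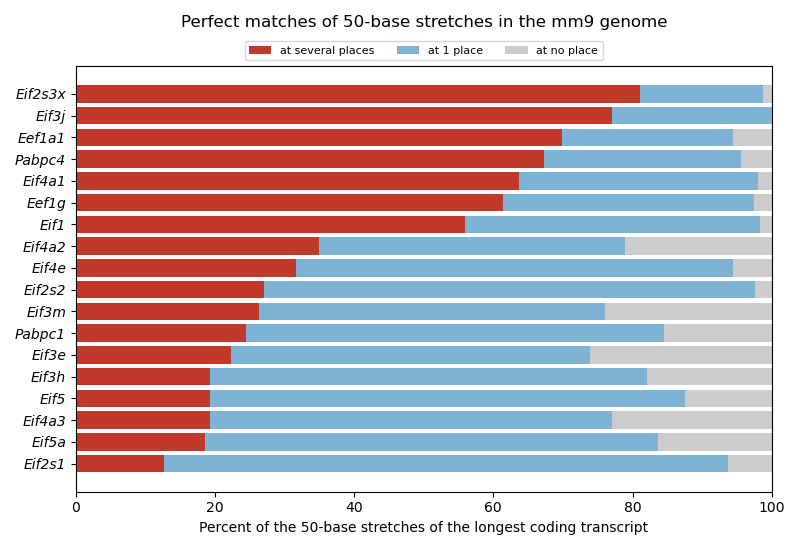
Percent of the 50-base stretches of the longest coding transcript that match the mm9 genome at several places, at 1 place or at no place, for the 18 members with over 10% at several places. *Eif2s3x* and *Eif3j* have the largest share at several places, at 81.0% and 77.0%, and *Eif2s1* the smallest of those shown.

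Reads in introns and on the antisense strand were counted separately and were not used to choose the members. In intron sense reads 45 members were listed and 26 tested, and 0 passed the test, against 0.0294% of all such features. In exon antisense reads 4 of 13 listed members were tested and in intron antisense reads 6 of 11, and 0 passed, against 0% of all features in each. In none of these 3 categories did a member reach an unadjusted p below 0.05 in the edgeR fit, against 2.35%, 2.98% and 4.5% of all features. DESeq2 also called 0 members in each.

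*Eif4e* had the most intron sense reads of the members, on average 1786. Its normalized counts there were 1448 and 2063 in the controls and 1886 and 1610 in *Nef-sp*-/-, so the spread between replicates exceeded the difference between genotypes. *Eif4a1* came next, with 1044 and 949 against 889 and 821, a log2 fold change of -0.22 (SE 0.14). It holds 3 snoRNA genes between its start and end on its own strand, and *Eif4a2* holds 5. In all, 10 members hold 19 snoRNA genes on their own strand, and the median intron sense count was 43.8 in those listed and 10.4 in members without a snoRNA gene inside. These counts were not scaled to the exon reads of each gene. Of the 10 members with the most intron sense reads, 3 hold a snoRNA gene. The part of snoRNA genes in the intron reads was not tested. *Eif4g2* had 41.5 and 36.8 against 47.6 and 52.8 normalized counts in introns, a log2 fold change of 0.37 (SE 0.24).

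For a pair of members the intron reads exceeded the exon reads. *Eif2c2* had 208 and 224 normalized counts in introns in the controls and 193 and 181 in *Nef-sp*-/-, a mean of 628 intron reads for every 100 exon reads. *Pabpc4*, with hardly any exon reads, had 74.0 and 83.2 against 88.1 and 81.4 in introns, and holds a pair of SNORA55 genes.

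On the antisense strand, *Eif2ak1* stood out by the number of reads. In its introns 4501 and 4591 normalized counts lay on the opposite strand in the controls and 4329 and 4336 in *Nef-sp*-/-, which is more than its exon sense reads. The log2 fold change was -0.07 (SE 0.071). The gene *Ankrd61*, from 144651610 to 144658554 on chromosome 5, lies inside *Eif2ak1* on the opposite strand. *Aimp2*, from 144663573 to 144670716, overlaps *Eif2ak1* in part on that strand as well. The antisense reads of *Eif2ak1* and reads of these genes cannot be told apart here. *Eif4g3*, with 349 and 318 against 298 and 320 antisense counts in introns, holds 1700095J12Rik on the opposite strand. *Eif5b*, a GTPase that joins the ribosomal subunits, had 517 and 455 against 496 and 470 exon antisense counts and overlaps *Rev1* on the opposite strand.

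Other antisense counts were small. *Eif5* had 21.0 and 16.6 normalized exon antisense counts in the controls and 5.83 and 16.6 in *Nef-sp*-/-, with a log2 fold change of -0.71 (SE 0.44). *Eif4a2* had 39.6 and 39.5 against 36.1 and 35.7 in the same category. *Eef1d* had 17.5 and 24.3 against 21.0 and 21.4 there, and 46.6 and 38.8 against 50.7 and 52.6 antisense in introns, where the log2 fold change was 0.30 (SE 0.23). The antisense difference in *Eif5* did not pass the test (edgeR adjusted p = 0.996). What size of difference could be detected at these counts was not tested.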

How the data were processed

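Testis RNA of 4 libraries was analysed, with genotype and replicate number read from the sample labels. The authors mapped reads to mm9, retained perfect matches and deposited raw counts by feature, annotation category and strand. What was done with reads that match several places is not given in the sources used here. A mean normalized signal across libraries, a log2 fold change and p-values from DESeq2, also deposited by the authors, were left aside.

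The raw counts were tested for genotype in R 4.3.3 with edgeR 4.0.16 (TMM, quasi-likelihood, no covariate), 1 annotation category at a time, after its expression filter with a minimum count of 10. Adjusted p-values follow Benjamini and Hochberg over the whole category, and the threshold was 0.05. A normalized count is the raw count scaled to the mean effective size of the libraries. The script was tested on simulated data first. Exon lengths, transcripts and coordinates (1-based) come from GENCODE vM1 on mm9. By symbol 66 of the 67 members were found in it, and *Eif1ay* was found through RefSeq as a synonym of *Eif1ax* on the X chromosome. Coding sequences were aligned with Biopython 1.88, and plots were made with matplotlib 3.10.9.

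Members and gene lists were chosen with earlier results of these data known. Named were the 10 members with the smallest p, the 2 highest and the lowest member of each role list, paralogue families, members too low to test, and the 3 members with the smallest p in each other category. Genes outside this rule, such as *Eef1d*, *Eef1g* and *Eif1a* in exon sense reads, were picked after their values were seen. In the alternatives, edgeR was given the size factors of DESeq2 or library sizes over all categories, the filter was dropped or set to 10 counts in each library, DESeq2 1.42.0 replaced edgeR, replicate numbers entered as a block, and every library was omitted in turn. Deviations of same-numbered libraries were correlated at -0.082 in exon sense, -0.14 in intron sense, -0.041 in exon antisense and -0.11 in intron antisense reads. After this was seen, a block with crossed numbers was added for intron sense and intron antisense reads.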

Additional observations from a re-analysis of the deposited data

How the results depend on the processing

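Without *Nef-sp*+/- replicate 2, 1 translation factor gene passed the test in exon sense reads. Under the other alternatives the number was 0, so that leaving out libraries gave 0 to 1. In the other 3 categories it was 0 under every alternative. The number of all exon sense features was 2 with DESeq2 and 1 to 252 with libraries left out (252 without *Nef-sp*+/- replicate 2, 41 without *Nef-sp*+/- replicate 1). Intron sense features that passed were 0 with library size over all categories, with no expression filter and with DESeq2. The range with libraries left out was 0 to 3 in exon antisense and 0 to 3 in intron antisense reads. With library size over all categories the median log2 fold change was -0.022 for the members and -0.023 for all features. With 2 libraries per genotype, members with few counts had wide intervals.

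With the replicate number as a block, 0 members and 1 of all exon sense features passed. An unadjusted p below 0.05 was then found in 2 members (3.17%), against 3.43% of all features. These were *Eif3f* and *Eif4g3*, and not *Pabpc1*. The labels do not say that a number marks a shared litter or day. With crossed numbers 2 intron sense features and 0 members passed.

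The sign of small values depended on the setting. With library size over all categories the log2 fold change was -0.020 for *Eif5a2*, -0.0099 for *Eif5*, -0.016 for *Eif2s1*, -0.022 for *Eif3c*, -0.016 for *Eif4a1* and -0.011 for *Eif4a2*. *Eif5a* was at 0.0013 with the size factors of DESeq2 and at 0.0018 with DESeq2. *Eef1d* antisense to exons was at 0.0091 with the block. The cause was not tested.

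With libraries left out in turn, the exon sense log2 fold change ranged from -0.064 to 0.034 for *Eef2*, -0.036 to 0.045 for *Eif5a2*, -0.036 to 0.23 for *Eef1e1*, -0.0020 to 0.032 for *Eif5* and -0.029 to 0.048 for *Eif2s1*. It ranged from -0.046 to 0.12 for *Eif2ak1*, -0.11 to 0.25 for *Eif2ak2*, -0.15 to 0.16 for *Eif2ak4*, -0.040 to 0.031 for *Eif2b4* and -0.22 to 0.029 for *Eif2b3*. The range was -0.23 to 0.012 for *Eif2c4*, -0.36 to 0.25 for *Eif2c2*, -0.0085 to 0.016 for *Eif3c*, -0.11 to 0.016 for *Eif3b* and -0.035 to 0.013 for *Eif3m*. It was -0.0098 to 0.18 for *Eif4g1*, -0.068 to 0.012 for *Pabpc2*, -0.060 to 0.012 for *Eif2s3y*, -0.013 to 0.033 for *Eif4a1* and -0.027 to 0.055 for *Eif4a2*. It was -0.069 to 0.059 for *Eif4e2*, -0.020 to 0.020 for *Eif5a*, and -0.21 to 0.27 for *Eef1d* antisense to exons. *Eif3f* stayed between -0.22 and -0.17, *Eif4g3* between -0.24 and -0.13, and *Pabpc1* between -0.18 and -0.13.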
